A study of Mus musculus with 11 samples.

Results

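Transcripts of insulin and leptin receptor signalling were followed in whole liver of obese mice with diet-induced steatohepatitis given INT-767 or vehicle. The set held 10 genes, found by their symbols among the 46603 genes of a raw count table: the insulin receptor Insr, its docking proteins Irs1 and Irs2, the kinases Akt1 and Akt2, the transcription factor Foxo1, the leptin receptor Lepr, and the negative regulators Socs3, Grb14 and Trib1. All 10 were found and all 10 passed the filter on low counts. INT-767 is a bile acid derivative that activates both the nuclear receptor FXR and the membrane receptor TGR5. The mice were male B6.V-Lep ob/JRj animals, homozygous for the ob allele of the leptin gene, so every mouse, controls included, lacked functional leptin. They were 5 to 6 weeks old when they were put on the AMLN diet, which is rich in fat, fructose and cholesterol, and stayed on it for 15 weeks before treatment and throughout dosing. A liver biopsy taken before treatment was used to select mice with disease. INT-767 at 10 mg/kg was then given by mouth each day for 8 weeks to 4 mice, and 7 mice received the carrier alone. The libraries held between 7381211 and 16022459 counts, 1 library per mouse, and no pair of libraries within a group was a duplicate.

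Insulin binding to its receptor leads to phosphorylation of the IRS docking proteins, which recruit PI3-kinase and activate AKT. AKT then excludes FOXO1 from the nucleus and so lowers transcription of gluconeogenic genes, and Irs2 and Insr are themselves FOXO targets in liver. The leptin receptor signals through JAK2 and STAT3, and SOCS3, a STAT3 target, restrains both receptors.

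Hepatocyte transcripts dominated the libraries, with albumin (Alb) at 43057 ± 4297 CPM in vehicle livers (SD, n = 7) and 63913 ± 19494 CPM with INT-767 (SD, n = 4), so the tissue label was matched by its markers. CPM here are counts scaled to a common library size with TMM factors. Of 13880 genes tested with edgeR's quasi-likelihood test, 1349 had an adjusted p under 0.05 (9.72% of those tested), 700 of them higher with INT-767 (5.04%) and 649 lower (4.68%). None of the 10 pathway genes was among them. At an unadjusted p under 0.05 there were 2 of the 10, Irs2 and Lepr, against 32.9% of all genes tested. DESeq2 called 1 of the 10, Lepr, against 20.3% of all genes, and limma-voom called 0, against 8.47%. The groups did not overlap for 1 of the 10, Akt2, against 7.51% of all genes. The median log2 fold change of the 10 was -0.27, with 3 above 0 and 7 below, beside -0.01 over all genes tested. This lean depended on the setting: with GC content and transcript length adjusted for, 5 lay above 0 and 5 below with a median of -0.01. With limma-voom, DESeq2, RLE factors or upper-quartile factors, 3 lay above and 7 below. With library size alone 1 lay above and 9 below, but that scaling moved all genes. Their median was then -0.22, beside -0.47 for the 10. In whole tissue, fewer cells of a type and less RNA per cell cannot be told apart.

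**Figure D1:**
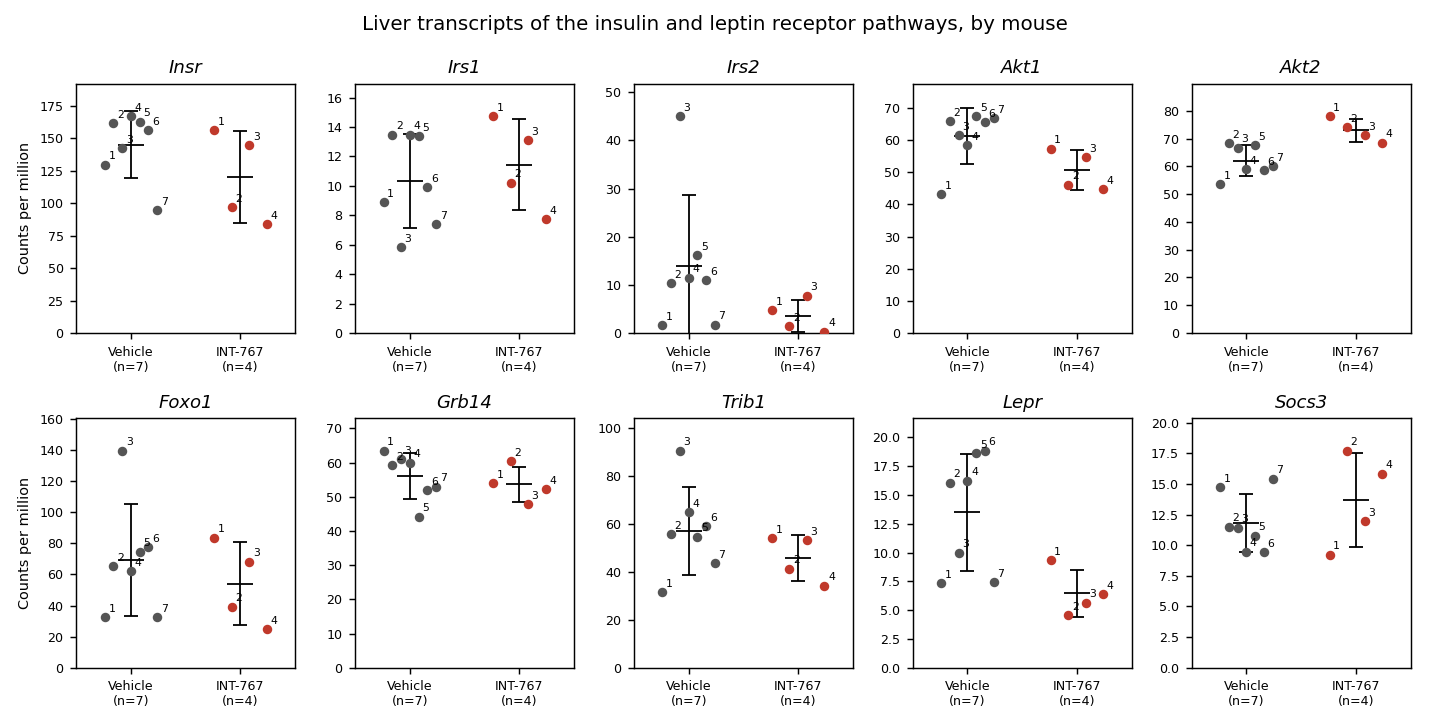
Level of each of the 10 genes in each liver, in CPM, for 7 vehicle and 4 INT-767 mice. Points are mice, numbered by replicate, and bars are the mean and SD (cut off at 0 for Irs2). Akt2 is the single gene whose groups do not overlap, and Vehicle mouse 3 stands above the other mice for Irs2, Foxo1 and Trib1.

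Per kilobase of exon (RPKM, CPM divided by the length of all annotated exons), Akt1 was the most abundant of the 10 in vehicle livers, at 14.96 ± 2.10 (SD, n = 7). Insr followed at 10.5 ± 1.88, and Trib1, Akt2, Foxo1 and Grb14 lay between 9.16 and 7.81. Socs3 was at 4.09 ± 0.822, below the range of Grb14. Irs2, Lepr and Irs1 were lowest, at 2.20 ± 2.33, 1.91 ± 0.722 and 1.13 ± 0.347. The ranges over mice of each gene and the next in this order overlapped, except between Grb14 and Socs3.

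4 libraries stood apart, and both groups held some of them. For each library, the Spearman correlation across 13835 genes between a gene's deviation from its mean over the mice and the length of its longest transcript was taken as a length index. It was negative in Vehicle mice 1 and 7 (-0.18 and -0.23) and in INT-767 mice 2 and 4 (-0.29 and -0.31), and lay between 0.09 and 0.30 in the other 7. Mitochondrial transcripts made up 6.63% and 5.37% of counts in those vehicle libraries and 7.80% and 7.53% in those INT-767 libraries, against 3.89% to 6.11% in the others. It was thus negative in 2 of 4 INT-767 and 2 of 7 vehicle libraries, the lowest values being in INT-767 libraries, and its relation to treatment was not tested. Results are therefore also given with a term for the sign of this index and within the 7 libraries where it was positive, both chosen after the data were seen. The fit with this term called 29.1% of all genes and that within the 7 libraries 12.1%, and the fit adjusted for GC content and length called 13.7%. A GC index, the same correlation with GC content of the longest transcript, was negative in all 4 INT-767 libraries (-0.06, -0.26, -0.16 and -0.24). It was also negative in Vehicle mice 1 and 7 (-0.42 and -0.12), and lay between 0.02 and 0.44 in Vehicle mice 2 to 6. Within the 7 libraries it thus still differed in sign between the groups, and its relation to treatment was not tested.

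Insr (GRCm38 chr8:3122061-3279617, minus strand), the receptor itself, did not pass the test. In vehicle mice 1 to 7 it was at 130, 162, 142, 167, 163, 156 and 94.7 CPM. In INT-767 mice 1 to 4 it was at 156, 96.7, 145 and 83.9 CPM. The groups overlapped, and the 4 lowest values belonged to the 4 libraries with a negative length index. Treated over vehicle, the log2 fold change was -0.27 ± 0.21 (SE), with a 95% interval of -0.72 to 0.18 and an edgeR adjusted p of 0.366. It became 0.11 when GC content and transcript length were adjusted for, -0.17 with the length index term and -0.06 within the 7 libraries of positive index. With 1 mouse left out it ran from -0.42 (without INT-767 mouse 1) to -0.13 (without INT-767 mouse 4).

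**Figure D2:**
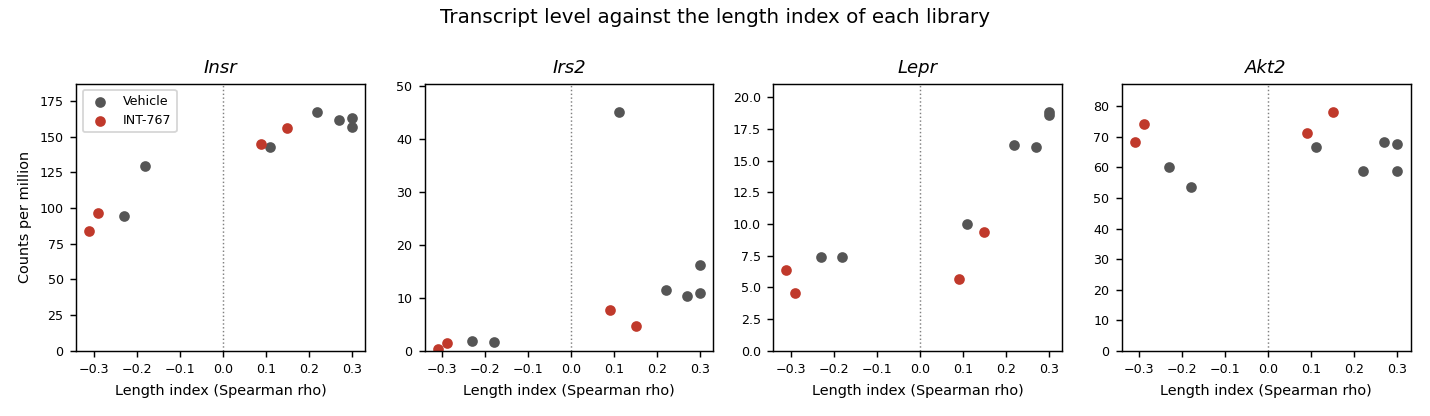
Level of Insr, Irs2, Lepr and Akt2 in CPM against the length index of the library, for 7 vehicle and 4 INT-767 mice. Insr and Irs2 are low in the 4 libraries left of 0 in both groups. On each side of 0 the INT-767 mice lie below the vehicle mice for Irs2 and Lepr and above them for Akt2.

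Irs1 (chr1:82233101-82291416, minus strand), a docking protein that couples the receptor to PI3-kinase, was low and did not differ beyond its spread. It was at 10.3 ± 3.17 CPM in vehicle livers (SD, n = 7) and 11.4 ± 3.11 CPM with INT-767 (SD, n = 4). Its log2 fold change was 0.15 ± 0.26 (SE; 95% interval -0.42 to 0.71, edgeR adjusted p = 0.702). Its direction turned with library size alone as the scaling (-0.04), which moved the median of all genes to -0.22. With GC content and length adjusted for it was 0.61 (adjusted p = 0.0671), within the 7 libraries of positive length index 0.32, and without INT-767 mouse 1 it was -0.003. Of its exon bases, 30.9% lie opposite the antisense gene Gm9747, which had 0 counts in all mice. Strand use in the counting is not given in the sources used here.

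Irs2 (chr8:10984681-11008458, minus strand), the other main docking protein in liver, had the largest difference of the 10 and also the widest spread. Vehicle mice 1 to 7 had 1.65, 10.3, 45.0, 11.5, 16.1, 10.95 and 1.75 CPM. INT-767 mice 1 to 4 had 4.70, 1.38, 7.74 and 0.2998 CPM. All 4 treated mice lay below the vehicle median, but Vehicle mice 1 and 7 lay among them, so the groups overlapped. The 4 lowest values belonged to the 4 libraries with a negative length index. Among these libraries, and among the others, the treated mice lay below the vehicle mice. With a log2 fold change of -2.0 ± 0.92 (SE; 95% interval -4.00 to -0.001), it had an unadjusted p of 0.0499 and an edgeR adjusted p of 0.151. It was -1.33 without Vehicle mouse 3 and -2.63 without INT-767 mouse 3. With the length index term it was -1.55 (edgeR adjusted p = 0.0582), and within the 7 libraries of positive index -1.63 (adjusted p = 0.230). With GC content and length adjusted for it was -1.565 (adjusted p = 0.177), and no fit tried called it. Irs2 is shown because its promoter, as RefSeq places it, carries a sequence of the insulin response type. The 250 bases before its start in GRCm38.p6, chr8:11008930-11009179 on the minus strand, hold 1 copy of TGTTTTG, in capitals, a motif chosen after this sequence had been read.
Irs2: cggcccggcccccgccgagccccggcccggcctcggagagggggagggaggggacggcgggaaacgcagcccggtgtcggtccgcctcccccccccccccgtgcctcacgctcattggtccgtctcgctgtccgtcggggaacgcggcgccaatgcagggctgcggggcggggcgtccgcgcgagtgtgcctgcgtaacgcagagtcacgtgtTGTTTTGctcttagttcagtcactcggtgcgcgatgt
The same letters, on either strand, occur in 6.28% of the 32851 RefSeq promoter windows of 300 bases, among them windows of Irs1 and Lepr. A match is a description of letters and not of binding.

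Akt1 (chr12:112653821-112674884, minus strand) and Akt2 (chr7:27591552-27640826, plus strand) encode the kinases below PI3-kinase, of which AKT2 is the main form in insulin-responsive metabolism. Akt1 was at 61.3 ± 8.61 CPM in vehicle livers and 50.7 ± 6.20 CPM with INT-767 (SD, n = 7 and 4), a log2 fold change of -0.27 ± 0.15 (SE; 95% interval -0.60 to 0.05, edgeR adjusted p = 0.208), or -0.12 with GC content and length adjusted for. All 4 treated mice lay below the vehicle median, but Vehicle mouse 1, at 43.2 CPM, lay below all of them.

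Akt2 went the other way. Vehicle mice 1 to 7 had 53.6, 68.2, 66.7, 58.9, 67.6, 58.7 and 60.1 CPM, and INT-767 mice 1 to 4 had 78.1, 74.2, 71.2 and 68.5 CPM. Every treated mouse lay above every vehicle mouse, the nearest pair being 68.5 and 68.2 CPM. The log2 fold change was 0.24 ± 0.12 (SE; 95% interval -0.02 to 0.49), and it did not pass edgeR's test (adjusted p = 0.174). It was called only with GC content and length adjusted for (0.52, adjusted p = 0.023). It was 0.03 with library size alone as the scaling, which moved the median of all genes to -0.22.

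Foxo1 (chr3:52268336-52353221, plus strand), the transcription factor that AKT restrains, ranged widely in both groups. Vehicle mice had a lowest value of 32.3, a median of 65.3 and a highest of 139 CPM, and INT-767 mice 1 to 4 had 83.6, 39.2, 68.1 and 25.0 CPM. The log2 fold change was -0.35 ± 0.41 (SE; 95% interval -1.25 to 0.54, edgeR adjusted p = 0.547), and 0.03 with GC content and length adjusted for. Without Vehicle mouse 3 it was -0.09, and without INT-767 mouse 1 it was -0.65.

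**Figure D3:**
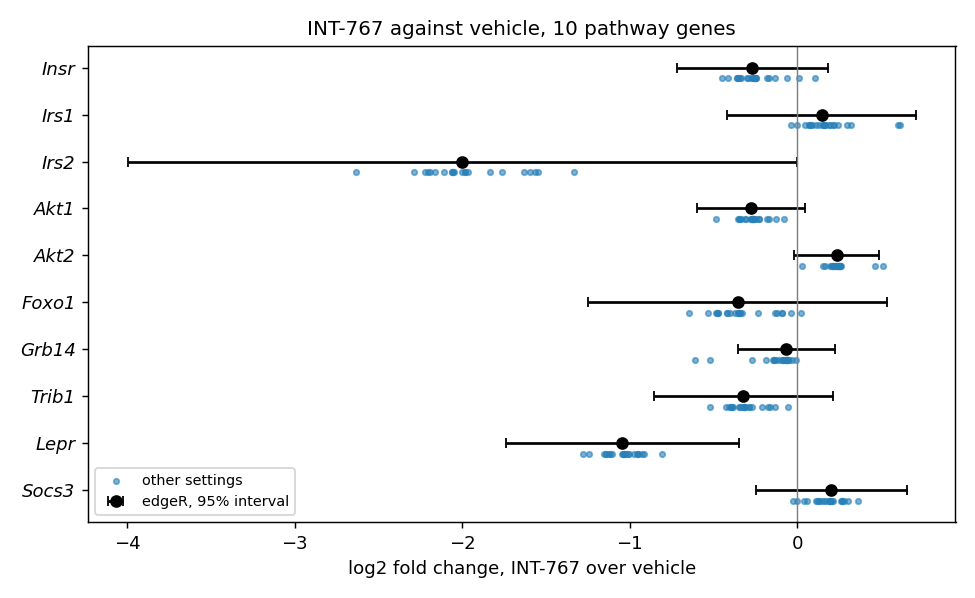
Log2 fold change of INT-767 over vehicle for the 10 genes. Black points and bars are the edgeR estimate with its 95% interval, and blue points are the estimates under the other settings, among them each mouse left out in turn. The estimates of Irs2, Lepr, Akt1, Grb14 and Trib1 stay below 0 under all settings shown and those of Akt2 above 0, while Insr, Irs1, Foxo1 and Socs3 fall on both sides.

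Grb14 and Trib1 act on this chain from outside. GRB14, an adaptor that binds the active insulin receptor and inhibits it, is encoded by Grb14 (chr2:64912476-65024987, minus strand), which was at 56.1 ± 6.72 CPM in vehicle livers and 53.6 ± 5.20 CPM with INT-767 (SD, n = 7 and 4). That is a log2 fold change of -0.06 ± 0.13 (SE; 95% interval -0.35 to 0.22, edgeR adjusted p = 0.745). With GC content and length adjusted for it was -0.52 (adjusted p = 0.103), outside that interval. Trib1 (chr15:59648350-59657099, plus strand) encodes a pseudokinase that brings C/EBPα to the ubiquitin ligase COP1. It was at 57.2 ± 18.4 CPM and 45.8 ± 9.63 CPM in the same groups, a log2 fold change of -0.32 ± 0.25 (SE; 95% interval -0.86 to 0.21, edgeR adjusted p = 0.361). It was -0.05 with GC content and length adjusted for, -0.16 with the length index term and -0.18 without Vehicle mouse 3.

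Lepr (chr4:101717404-101815352, plus strand), the leptin receptor, came closest to the threshold. Vehicle mice 1 to 7 had 7.35, 16.1, 9.98, 16.2, 18.6, 18.8 and 7.41 CPM. INT-767 mice 1 to 4 had 9.34, 4.56, 5.63 and 6.37 CPM. All 4 treated mice lay below the vehicle median, and 3 of them below every vehicle mouse, with INT-767 mouse 1 above Vehicle mice 1 and 7. The log2 fold change was -1.04 ± 0.32 (SE; 95% interval -1.74 to -0.35), with an unadjusted p of 0.00664 and an edgeR adjusted p of 0.0584. Its adjusted p was 0.0885 with limma-voom, 0.0572 with RLE factors, 0.0567 with at least 10 counts in every mouse and 0.524 with the replicate block, none of which called it. Lepr was called with the length index term (-0.80, adjusted p = 0.0136), within the 7 libraries with a positive index (-1.04, adjusted p = 0.0273), with GC content and length adjusted for (-1.14, adjusted p = 0.0381), and by DESeq2 (-1.04, adjusted p = 0.0147). It was called too with library size alone or upper-quartile factors as the scaling (-1.24 and -1.12, adjusted p = 0.0420 and 0.0472). These scalings moved the median of all genes in the same direction, to -0.22 and -0.09. Lepr was also called when Vehicle mouse 1, Vehicle mouse 7 or INT-767 mouse 1 was left out, and the adjusted p over the 11 such fits ran from 0.0249 to 0.191. The counts are per gene, so the long signalling form and the short forms of the receptor were not separated. The stretch before the first RefSeq start, chr4:101717157-101717401 on the plus strand, is shown as the promoter of the gene with the smallest p, and holds none of the 4 motifs searched, hence no capitals.
Lepr: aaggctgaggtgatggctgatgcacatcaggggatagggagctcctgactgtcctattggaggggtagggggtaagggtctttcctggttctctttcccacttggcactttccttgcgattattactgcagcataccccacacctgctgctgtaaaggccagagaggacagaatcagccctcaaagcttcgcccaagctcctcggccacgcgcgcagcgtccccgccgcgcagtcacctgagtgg

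Socs3 (chr11:117966079-117970047, minus strand), the inhibitor induced by STAT3, was at 11.8 ± 2.38 CPM in vehicle livers and 13.7 ± 3.81 CPM with INT-767 (SD, n = 7 and 4). The log2 fold change was 0.21 ± 0.21 (SE; 95% interval -0.24 to 0.65, edgeR adjusted p = 0.487). It was -0.02 with library size alone, which moved the median of all genes to -0.22. Leaving out INT-767 mouse 2 gave 0.04, and leaving out INT-767 mouse 1 gave 0.36. The promoter windows of Socs3 and Akt2 each held the palindrome TTCNNNGAA that STAT factors recognise, shown in capitals because it is the motif of the leptin receptor's own pathway. On either strand it occurs in 8.30% of all windows.
Socs3: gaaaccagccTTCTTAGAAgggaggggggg
Akt2: tcactgggccTTCGGGGAAagcctacttgt
These lie at chr11:117969501-117969530 on the minus strand and chr7:27591382-27591411 on the plus strand (RefSeq, GRCm38.p6). The Socs3 stretch precedes the RefSeq start but lies within the GENCODE span of the gene given above, outside its annotated exons, since the starts of these annotations differ. The FOXO core GTAAACA, present in 3.65% of all windows, was found before Akt1, and the inverted repeat of AGGTCA spaced by 1 base that FXR binds, present in 0.00913% of them, was found in none of the 13 windows of 8 members. Insr and Trib1 had no window.

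The genes whose levels ran most alike over the 11 mice were named for the members with the 3 roles of receptor, docking protein and leptin receptor. Insr ran most like Bach2, Ercc6 and Cep120 (Pearson r of 0.973, 0.970 and 0.969 on log2 CPM, among 13879 genes). Irs2 ran most like Tle3, Elmsan1 and C4b (0.981, 0.970 and 0.968), and Lepr most like Slc17a8, 6430548M08Rik and Spaca6 (0.967, 0.961 and 0.958). Spearman rho for these 9 genes lay between 0.873 and 0.982, and the points share their libraries. The genes named for Insr and Irs2 all had their lowest values in the libraries with a negative length index, as Insr and Irs2 themselves did.

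The rest of the pathway was taken from lists of 76 genes outside the 10, of which 70 were tested. The edgeR test called 1 higher and 1 lower, where it called 5.04% and 4.68% of all genes. Foxo4, a further AKT-restrained FOXO factor, rose by 0.66 ± 0.14 on the log2 scale (SE; edgeR adjusted p = 0.0157), from 28.5 ± 2.57 to 45.0 ± 8.75 CPM (SD, n = 7 and 4), with no overlap. Pik3cd, the leukocyte-enriched catalytic subunit of PI3-kinase, fell by 1.53 on the log2 scale (SE 0.40, adjusted p = 0.0338), from 12.998 ± 6.11 to 4.49 ± 2.07 CPM. The median over the 70 was -0.14. The call for Pik3cd was lost in 6 of the 11 fits that left out 1 mouse, and that for Foxo4 in 1. The counts that follow leave out the 10 genes themselves, and are to be read against all genes tested, of which 9.72% were called by edgeR, 20.3% by DESeq2 and 8.47% by limma-voom, and 32.9% had an unadjusted p under 0.05.

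The receptor-proximal and leptin-side genes did not pass. Among 8 further tested genes of the insulin receptor family and docking proteins, edgeR called 0, with 1 at an unadjusted p under 0.05 and 0 by DESeq2 or limma-voom. Igf1r, the IGF-1 receptor, had a log2 fold change of -1.76 ± 0.73 (SE, edgeR adjusted p = 0.119). Its counts were few, 46 in total in INT-767 and 307 in vehicle mice. In each group its lowest values lay in the libraries with a negative length index. Among 16 further tested genes of the leptin receptor and JAK-STAT list edgeR called 0, with 4 at an unadjusted p under 0.05, 3 by DESeq2 and 0 by limma-voom, and Stat3 had -0.68 ± 0.23 (adjusted p = 0.0761). The 16 further inhibitors of insulin signalling gave 0 calls, with 5 at an unadjusted p under 0.05, 1 by DESeq2 and 0 by limma-voom. Of these, Grb10, an adaptor related to GRB14, had -0.55 ± 0.21 (edgeR adjusted p = 0.105), Ptpn1 -0.15 ± 0.16 (adjusted p = 0.513) and Trib3 -0.19 ± 0.33 (adjusted p = 0.695). Pik3r1, the regulatory subunit of PI3-kinase, had -0.41 ± 0.23 (adjusted p = 0.222), or -0.66 without INT-767 mouse 1 (adjusted p = 0.0576). With the length index term, which called 29.1% of all genes, Igf1r, Stat3 and Grb10 were called in the same direction. The SOCS family gave 0 calls among 6 (2 at an unadjusted p under 0.05, 0 by DESeq2 or limma-voom), and the partners of the Tribbles proteins 0 among 8 (1 at an unadjusted p under 0.05, 1 by DESeq2 and 0 by limma-voom).

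**Figure D4:**
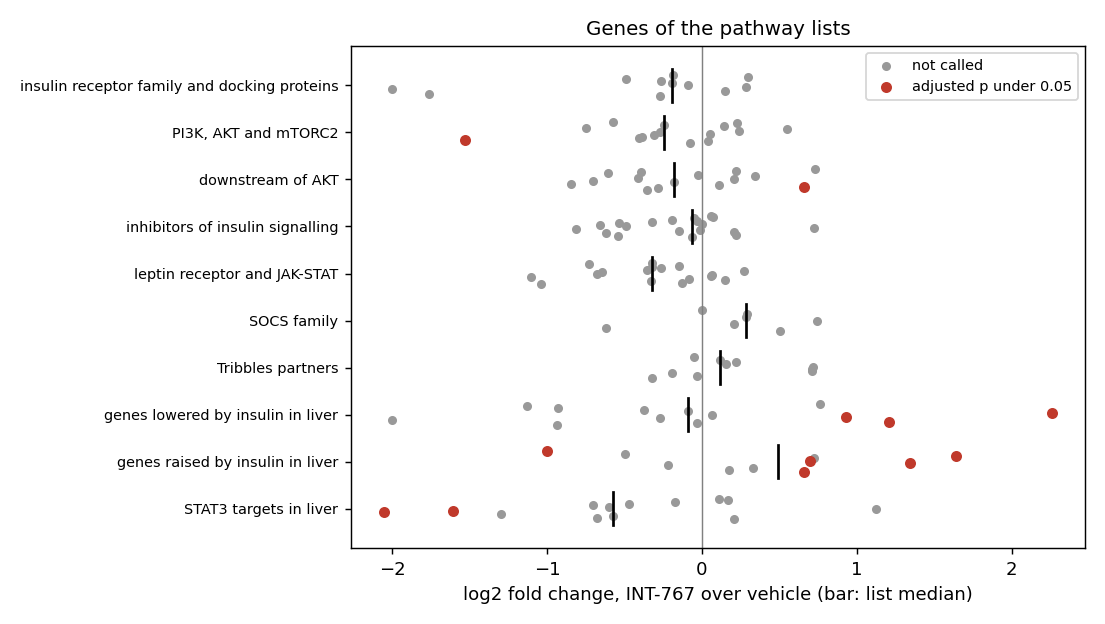
Log2 fold change of INT-767 over vehicle for each tested gene of 10 pathway lists. Red points have an edgeR adjusted p under 0.05, grey points do not, and bars are list medians. The lists of genes that insulin lowers, insulin raises or STAT3 induces in liver hold 3, 5 and 2 red points, and no list was tested for enrichment.

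Transcripts that insulin controls in liver moved in both directions. Of 11 further tested genes that insulin lowers, edgeR called 3, all higher, DESeq2 5 and limma-voom 2, where edgeR called 9.72% of all genes. Igfbp2, an IGF-binding protein, rose by 2.26 ± 0.33 (SE, edgeR adjusted p = 0.00329), Ppargc1a, a coactivator of gluconeogenic genes, by 0.93 ± 0.15 (adjusted p = 0.00496) and G6pc, the catalytic subunit of glucose-6-phosphatase, by 1.21 ± 0.30 (adjusted p = 0.0298), all on the log2 scale. G6pc was at 439, 623, 156 and 679 CPM in INT-767 mice 1 to 4, against 161 to 275 CPM in vehicle mice, so that INT-767 mouse 3 lay below all vehicle mice. The G6pc call was lost with limma-voom, within the 7 libraries of positive length index, and in 6 of the 11 fits that left out 1 mouse, whereas those of Igfbp2 and Ppargc1a were lost in none of these. Pck1, which encodes the other gluconeogenic control enzyme, was at -0.03 ± 0.42 (adjusted p = 0.962), and Igfbp1, a FOXO1 target, at -0.94 ± 0.71 (adjusted p = 0.358), or -0.17 without Vehicle mouse 3 and -1.42 without INT-767 mouse 3.

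Of 10 tested genes that insulin raises, edgeR called 4 higher and 1 lower, DESeq2 called 5 and limma-voom 4, against 9.72%, 20.3% and 8.47% of all genes. Among those that rose, Thrsp, a lipogenic regulator, increased by 1.64 ± 0.34 (SE, edgeR adjusted p = 0.0139), Acly, ATP citrate lyase, by 1.34 ± 0.29 (adjusted p = 0.0180) and Elovl6, a fatty acid elongase, by 0.70 ± 0.19 (adjusted p = 0.0427). Scd1, the stearoyl-CoA desaturase, fell by 1.00 (SE 0.25, adjusted p = 0.0283), with no overlap. Srebf1, the lipogenic transcription factor, was at 0.17 ± 0.22 (adjusted p = 0.577). Without INT-767 mouse 1 the Acly value was 0.84 (adjusted p = 0.0313). The Elovl6 call was lost in 8 of the 11 fits that left out 1 mouse, and the Scd1 call with GC content and length adjusted for and, as for Thrsp, within the 7 libraries of positive length index. Of 12 further STAT3 targets tested, 2 fell by edgeR, with 3 called by DESeq2 and 2 by limma-voom: Lcn2, an acute phase protein, by 2.05 (SE 0.46, adjusted p = 0.0191) and Fgl1, a hepatocyte-secreted acute phase protein, by 1.61 (SE 0.36, adjusted p = 0.0198). Both of these calls were lost within the 7 libraries of positive length index.

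A minority of the markers of other liver cells were called, and no marker list was tested as a whole. Over all genes, 4.68% were called lower by edgeR, 20.3% were called by DESeq2, 8.47% by limma-voom and 32.9% had an unadjusted p under 0.05. Of 13 macrophage markers, 2 were called lower (Csf1r and Cd68), with a summed level of 917 ± 157 CPM in vehicle and 651 ± 312 CPM in INT-767 livers, Lyz2 being the most abundant. INT-767 mice 1 to 4 had sums of 511, 502, 473 and 1118 CPM, the last above the highest vehicle sum of 1096 CPM. Of these 13, 7 had an unadjusted p under 0.05, DESeq2 called 6, limma-voom called 3, and 12 had a log2 fold change below 0 (median -0.64). Of 13 stellate cell and myofibroblast markers, 3 were lower (Col1a2, Col1a1 and Pdgfrb), with sums of 1363 ± 407 and 941 ± 264 CPM, Dcn being the most abundant. The sums in INT-767 mice 1 to 4 were 774, 800, 857 and 1334 CPM. Here 5 had an unadjusted p under 0.05, DESeq2 called 4, limma-voom called 4, and 10 of the 13 lay below 0 (median -0.70). Of 11 endothelial markers, 1 was lower (Vwf), with sums of 369 ± 119 and 246 ± 55.7 CPM, Eng being the most abundant. Here 5 had an unadjusted p under 0.05, DESeq2 called 2 and limma-voom called 1. Of these 11, 9 lay below 0 (median -0.46). The hepatocyte list gave 0 calls among 12, with 7 at an unadjusted p under 0.05, 6 by DESeq2 and 0 by limma-voom. It went the other way, with 10 of the 12 above 0 (median 0.54). Its sums were 72704.5 ± 7522 CPM in vehicle and 106687 ± 16734 CPM in INT-767 livers, Alb being the most abundant. Cholangiocyte markers gave 0 calls among 7 (4 at an unadjusted p under 0.05, 3 by DESeq2, 0 by limma-voom, Spp1 the most abundant), and all 7 lay below 0 (median -0.64). Lymphocyte markers gave 0 calls among 8 (2 at an unadjusted p under 0.05, 0 by the other tools, Ptprc the most abundant), with 6 below 0 (median -0.60). Among 3 neutrophil markers tested Csf3r was lower, while S100a8 and S100a9 had log2 fold changes of 0.31 and 0.46 and were not called. INT-767 mouse 4 carried both, at 9.97 and 15.7 CPM, beside vehicle means of 3.48 and 4.09 CPM. INT-767 mice 1 to 3 had 2.67, 3.73 and 0.422 CPM of S100a8. For S100a9 they had 2.16, 3.18 and 0.845 CPM. Cidec, from the adipocyte list, was lower, but it was at 188 CPM in vehicle livers (mean of 7), where Lep and Adipoq had 0 counts. With 1 mouse left out, the call was lost in 4 of 11 fits for Col1a2, 6 for Col1a1, 6 for Pdgfrb, 7 for Vwf, 5 for Cidec and 1 for Csf3r, and in none for Csf1r and Cd68. Within the 7 libraries of positive length index it was lost for Col1a1, Vwf and Cidec. The part of these cell types in the levels of the 10 genes was not tested.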

How the data were processed

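Whole-liver RNA was sequenced from 7 vehicle and 4 INT-767 mice. The deposited file holds raw counts per gene, which the authors made by aligning reads to GRCm38 with STAR (version 2.4.0 in the submitters' processing notes, 2.5.2a in the study's methods, with Ensembl release 84); the counting program is not given in the sources used here. All 11 columns were matched to mice by library name, and 0 were left unmapped. Counts were tested in edgeR 4.0.16 (R 4.3.3) with TMM factors, filterByExpr (minimum count 10) and the robust quasi-likelihood test of treatment alone, with Benjamini-Hochberg adjustment over 13880 genes and a threshold of 0.05. limma 3.58.1 and DESeq2 1.42.0 were alternatives, with other scalings, filters, a GC and length offset, a replicate block and each mouse left out. The fit was tested on simulated data.

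Gene models were GENCODE M21. Genes named were the 10 members, a fixed set of pathway genes, up to 5 called genes per list by smallest adjusted p, and the 3 genes most like Insr, Irs2 and Lepr. Some named genes are not reported here. The members and lists were chosen with earlier results of these data known. p-values measure the spread between mice, and depth limits the genes of lowest count.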

Additional observations from a re-analysis of the deposited data

Results flagged for a closer look

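Single mice stood far from the rest of their group, by Dixon's criterion, for 11 of 86 combinations of gene and group (43 genes). Chance flags about 1 in 20 groups of independent, normally distributed values, but these genes share the same 11 libraries and some have 0 counts in most mice, so the number was not compared with chance. In Vehicle mouse 3, Irs2 was at 45.0 CPM against 1.65 to 16.1 in the other vehicle mice, Foxo1 at 139 CPM against 32.3 to 77.6, and Igfbp1 at 730.1 CPM against 62.8 to 158. In Vehicle mouse 1, Akt1 was at 43.2 CPM against 58.4 to 67.5. In INT-767 mouse 1, Pik3r1 was at 131 CPM against 70.7 to 74.8 in the other treated mice, Acly at 728 CPM against 268 to 274, and Vwf at 9.47 CPM against 4.42 to 5.10. In INT-767 mouse 2, Scd1 was at 8658 CPM against 15414 to 16060.

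INT-767 mouse 4 was the single library with Lep transcript, at 4.796 CPM (64 counts), and the other 10 mice had 0 counts. In the same library Adipoq, a hormone of adipocytes, was at 3.37 CPM (45 counts) and Plin1, a lipid droplet protein of adipocytes, at 1.35 CPM (18 counts), against at most 0.138 CPM in the other treated mice. The part of this library in the result for Lepr was measured by leaving it out, which gave a log2 fold change of -1.03 and an edgeR adjusted p of 0.119.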

How the results depend on the processing

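Over 239 alternative values for the 10 genes, 222 kept direction and side of the threshold, 10 became called (9 for Lepr, 1 for Akt2) and 7 changed sign. Insr was 0.109 with the GC and length offset and 0.011 with that offset and the replicate block, and Foxo1 0.026 with the offset. With library size alone Irs1 was -0.037 and Socs3 -0.025, but that scaling moved the median of all genes to -0.219. Those sign changes are thus not particular to these genes. Irs1 ran from -0.003 (without INT-767 mouse 1) to 0.297 with 1 mouse left out. Socs3 was -0.001 within the 7 libraries of positive length index. Genes called numbered 1349, and 2811 by DESeq2, 4038 with the length index term, 245 at a threshold of 0.01, and 274 (without INT-767 mouse 2) to 3276 (without Vehicle mouse 1) with 1 mouse left out. Members called higher were 1 with the offset and 0 otherwise. Members called lower were 1 with library size alone, upper-quartile factors, DESeq2, the offset, the length index term and the 7 libraries, and 0 to 1 with 1 mouse left out. With the replicate block, 0 genes were called, also with the offset, and Lepr had -0.91 (adjusted p = 0.524). Deviations of mice of the same number had r of -0.678, 0.204, 0.133 and -0.474, which gives no sign of pairing but cannot exclude it. Vehicle mice 5 to 7 have no treated mouse of the same number, so under the block they did not enter the comparison. The calls lost with the block therefore cannot be set against the main fit. Irs2 could not be fitted with at least 10 counts in every mouse.

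Of 20 other named genes called, all 20 lost the call with the replicate block, 16 at a threshold of 0.01, 9 within the 7 libraries, 0 with DESeq2 or the length index term, and 0 (without Vehicle mouse 1) to 15 (without INT-767 mouse 2) with 1 mouse left out. Over 718 values for the other named genes, 142 lost the call, 12 became called and 14 changed sign. Pck1 turned to 0.083 with the offset, 0.118 with the length index term and 0.348 within the 7 libraries, and ran from -0.526 to 0.235 with 1 mouse left out. Ptpn1 was 0.149 with the offset and 0.154 with the offset and the block. Trib3 was 0.143 within the 7 libraries and -0.431 to 0.049 with 1 mouse left out. Srebf1 was -0.044 with library size alone, which moved all genes, and -0.084 within the 7 libraries. The causes were not tested.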
